A study of Mus musculus with 4 samples.

Results

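The genes described here are the cell's sensors of foreign or misplaced nucleic acid and the signalling genes of the interferon system, from sensors, nucleases and adaptors to interferon regulatory factors (IRFs), interferon receptors, Janus kinases, STAT factors and their inhibitors. They were taken by symbol from a list of 40 names, of which 39 were in the table of 14323 genes. The remaining name, Lgp2, is an older symbol of Dhx58, which is listed under its current name. A mean of at least 1 normalized count over the 4 libraries was reached by 38 of the 39, as by 11370 genes in all, and the gene that did not reach it was Tlr3.

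RNA was sequenced from colonies grown from short-term haematopoietic stem cells (ST-HSC) and from MPP2 cells, a multipotent progenitor leaning toward platelets and red cells, of a C57BL/6 mouse model. Per the labels, cultures of 100 cells stayed 5 to 7 days in 1% methylcellulose, fed with SCF, GM-CSF, IL-3 and IL-6. The ST-HSC and MPP2 cultures with 0.05 µM 4-hydroxytamoxifen (4OHT), the active form of tamoxifen, carry the label MLL-ENL, a leukaemia fusion protein whose expression 4OHT switches on in this model. The ST-HSC and MPP2 cultures with ethanol, the solvent, carry the label control and come from the same model. The sources used here give neither the age or number of the mice nor what drives the inducible gene. No culture with 4OHT but without the inducible fusion was analysed here, so effects of the drug and of the fusion cannot be told apart. The question asked of the series was how induced cells differ from their own controls.

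In mammalian cells, RNA in the cytosol is recognised by the helicases RIG-I and MDA5, which their relative LGP2 regulates and which signal through the adaptor MAVS. DNA in the cytosol is recognised by cGAS, which signals through STING. Both routes activate the kinases TBK1 and IKKε and the factors IRF3 and IRF7, which switch on interferon genes. Secreted type I interferon binds the receptor made by Ifnar1 and Ifnar2, and the kinases JAK1 and TYK2 then phosphorylate STAT2, which joins IRF9 in a complex that binds the interferon-stimulated response element (ISRE). Several sensors, Irf7 and Irf9 are themselves targets of that complex.

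There was 1 library for each of these 4 groups, with 12907412 to 14317891 recovered reads, and 1 read was worth 0.0695 to 0.0802 normalized counts. No pair of libraries has a replicate check. Intervals given below are 95% counting intervals, which cover counting error alone, since PCR copies were not marked and variation between cultures is not included. Only an effect shared by both cell types could be tested, and that test has 1 residual degree of freedom. This residual is how far the 4OHT differences of the cell types lie apart, and limma draws it toward that of all genes (prior degrees of freedom 3.94). Standard errors and p-values given below thus do not measure variation between replicate cultures. The libraries come from whole colonies: 12 neutrophil markers summed to 25254 normalized counts in ST-HSC colonies with 4OHT and 33477 with ethanol, and to 43287 in MPP2 colonies with 4OHT and 44353 with ethanol. The 13 measured stem and progenitor markers summed to 229 (4OHT) and 167 (ethanol) in colonies of ST-HSC and to 264 and 405 in those of MPP2, so the levels below are those of colonies rich in neutrophil transcripts and not of the plated cells. In bulk samples, fewer cells of a type and less RNA per cell cannot be told apart.

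The ISRE core was searched for in the promoters of these genes because several of them stood higher with 4OHT together. RefSeq promoter windows of 300 bases on GRCm38.p6, with 250 bases before and 50 after the transcription start, were found for 35 of the 39 genes. Not matched were Zbp1, Dhx58, Rnaseh2b and Tmem173. The letters searched were GAAANNGAAA and, for the other strand, TTTCNNTTTC. They stood in the windows of 6 of the 35 genes (17.1%) and of 3.99% of all 27025 symbols with a window. The stretches holding a match follow, 5′ to 3′ on the gene's strand, with the matched letters in capitals, at most 30 bases where the stretch reaches into a transcript and 60 otherwise.
Ddx58, chr4:40239804-40239833, minus strand: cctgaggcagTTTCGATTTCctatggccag
Ifih1, chr2:62646206-62646235, minus strand: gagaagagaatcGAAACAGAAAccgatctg
Trim21, chr7:102565447-102565476, minus strand: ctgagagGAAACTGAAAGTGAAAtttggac
Irf2, chr8:46739495-46739554, plus strand: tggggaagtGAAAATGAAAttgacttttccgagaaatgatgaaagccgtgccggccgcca
Stat2, chr10:128270251-128270310, plus strand: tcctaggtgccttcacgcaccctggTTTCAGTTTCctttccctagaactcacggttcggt
Socs1, chr16:10785582-10785641, minus strand: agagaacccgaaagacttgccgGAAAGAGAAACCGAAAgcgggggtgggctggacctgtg
In Trim21 and Socs1 the capitals are 2 overlapping matches. The matches in Ddx58, Ifih1 and Trim21 lie just after the start, those in Socs1 between 83 and 68 bases before it, and those in Stat2 and Irf2 over 200 bases before it. Of these genes, Ddx58 and Socs1 had 4OHT to ethanol intervals above 1 in both cell types, and Stat2 and Trim21 in MPP2 colonies alone. Ifih1 had neither, and the interval of Irf2 lay below 1 in MPP2 colonies. Irf9, Adar, Trex1 and Irf5, described below as higher with 4OHT, had windows without this match. Whether the match goes with the 4OHT difference was not tested.

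The STAT dimer motif (gamma-activated site, GAS, letters TTCNNNGAA, which read the same on both strands) stood in the windows of 7 of the 35 genes and of 9.55% of all symbols. The 7 were Adar, Irf1, Irf2, Socs3, Ifnar1, Ifnar2 and Rnaseh2a. Irf2 alone held both motifs, without overlap. Irf1, a textbook target of interferon gamma, and Socs3, of STAT3, are shown.
Irf1, chr11:53769898-53769957, plus strand: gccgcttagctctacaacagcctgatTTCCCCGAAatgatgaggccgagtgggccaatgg
Socs3, chr11:117969502-117969531, minus strand: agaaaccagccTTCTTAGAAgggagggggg
The window of Irf7, the gene with the largest 4OHT ratio among the 38, held neither motif. Its part upstream of the GENCODE gene is shown for comparison.
Irf7, chr7:141266482-141266674, minus strand: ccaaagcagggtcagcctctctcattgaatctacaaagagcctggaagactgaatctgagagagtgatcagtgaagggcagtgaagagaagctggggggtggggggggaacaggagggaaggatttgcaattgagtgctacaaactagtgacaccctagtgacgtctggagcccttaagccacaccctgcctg
These matches are descriptions of letters, not of bound sites.

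In ST-HSC colonies 4 of the 38 genes stood at least 2-fold higher with 4OHT than with ethanol, which 2.10% of all genes did. They were Irf7, Zbp1, Dhx58 and Irf9. None stood at least 2-fold lower, against 0.545% of all genes. In MPP2 colonies only Trex1 passed 2-fold, upward, against 1.32% of all genes higher and 1.70% lower. Differences here are log2 of the normalized count plus 0.5. With 2 added in place of 0.5, Trex1 did not pass 2-fold. Its value is also uncertain because of sequence shared with other genes, as given below. The median log2 difference of the 38 genes was 0.17 in ST-HSC and 0.24 in MPP2 colonies, while that of all genes was -0.00373 and -0.00236. The highest value of the 38 was 2.92 in ST-HSC colonies and 1.11 in MPP2 colonies, and the lowest was -0.23 and -0.66. Log2 differences were above 0 for 29 of the 38 in ST-HSC colonies (49.3% of all genes), for 30 in MPP2 colonies (49.7%), and in both for 28 (30.4%).

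Counting intervals separated more genes from a ratio of 1 than the 2-fold limit did. In ST-HSC colonies the interval lay above 1 for 18 of 38 genes (18.8% of all genes) and below 1 for 5 (20.0% of all genes). In MPP2 colonies it lay above 1 for 23 (23.9% of all genes) and below 1 for 5 (23.9% of all genes). It lay above 1 in both cell types for 16 genes, against 9.19% of all genes, and below 1 in both for Dhx9 and Jak2, against 9.95%. The 4 libraries are shown gene by gene in the plot of levels, and the ratios with their intervals in the plot after it.

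**Figure D1:**
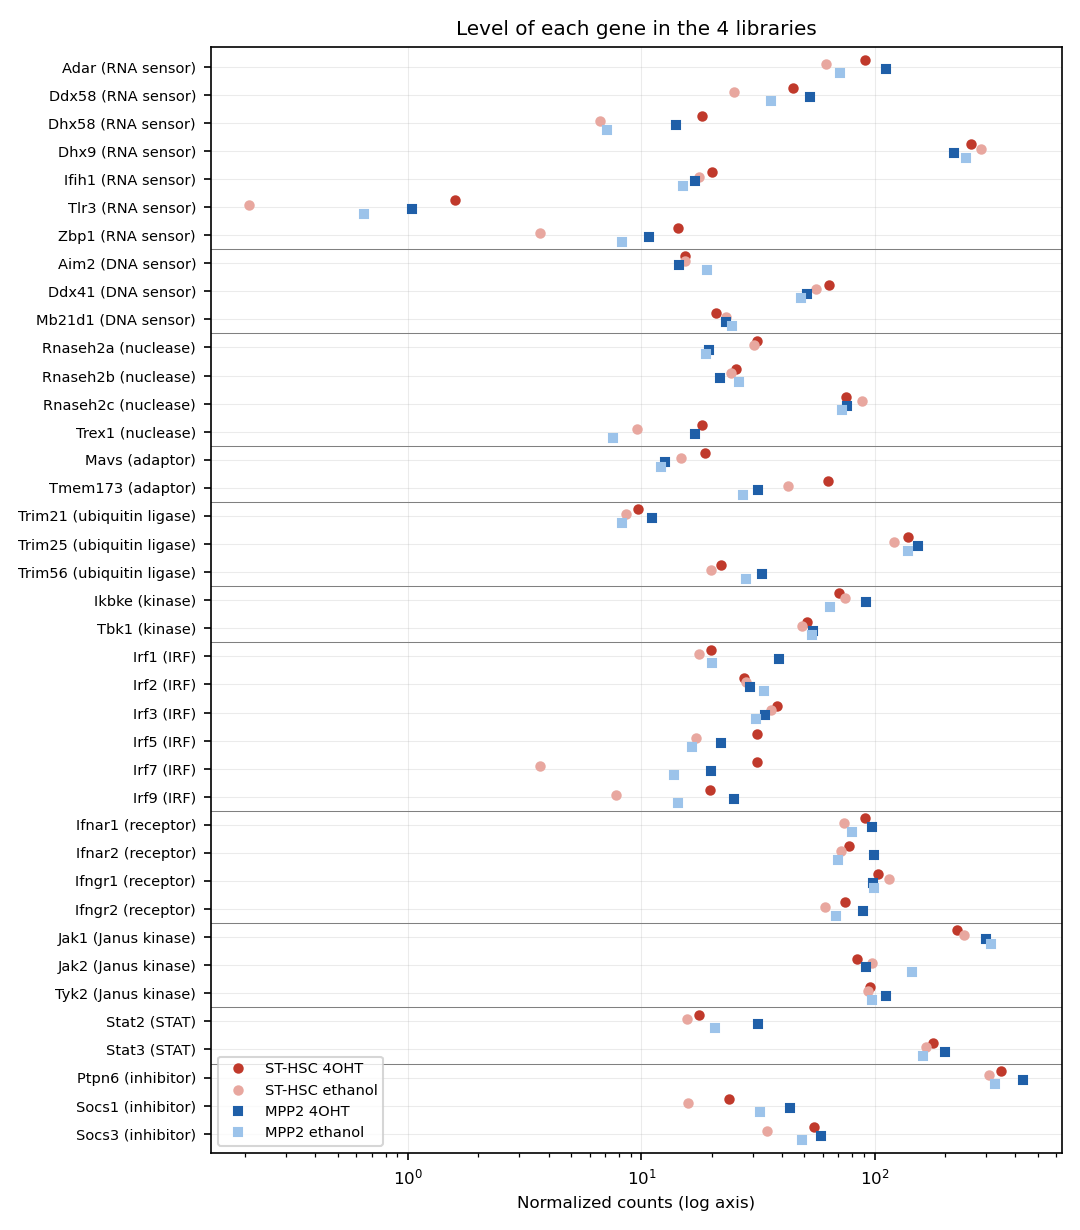
Normalized counts on a log axis for the 39 genes, grouped by role, in the 4 libraries (circles for ST-HSC and squares for MPP2, dark for 4OHT and light for ethanol). Irf7, Zbp1, Irf9 and Dhx58 have a wide gap between the ST-HSC points (31.3 against 3.69 for Irf7), while those of the receptors and Janus kinases lie close together. Jak2 has a wider gap between the MPP2 points (91.8 with 4OHT against 145 with ethanol).

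**Figure D2:**
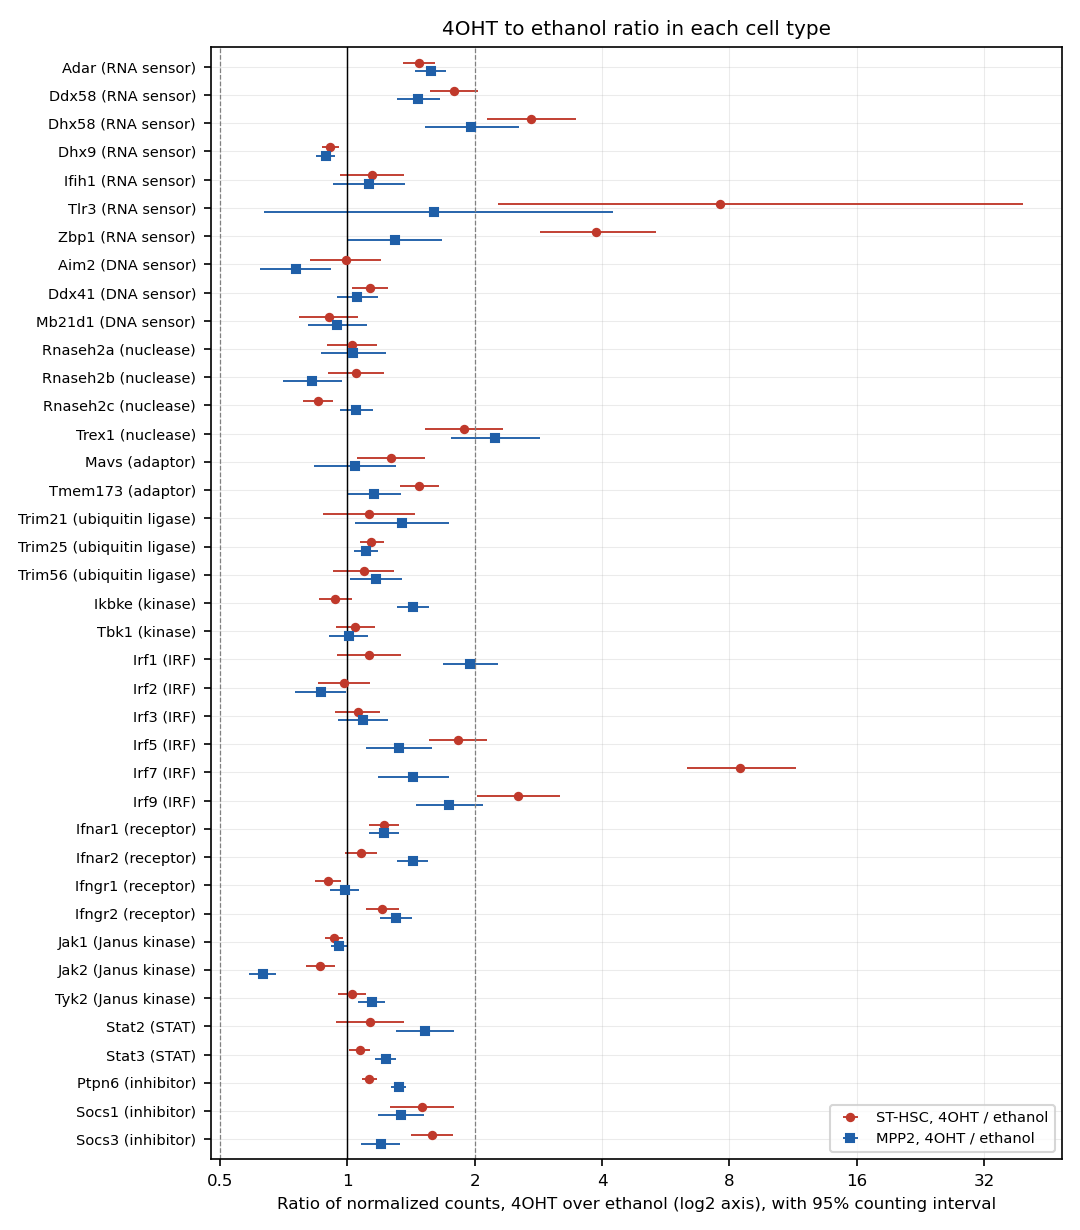
Ratio of normalized counts, 4OHT over ethanol, on a log2 axis with 95% counting intervals, for ST-HSC (circles) and MPP2 (squares); dashed lines mark 2-fold. Irf7 lies at 8.48 in ST-HSC and 1.43 in MPP2 colonies, and Jak2 lies below 1 in both.

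For the effect shared by both cell types, limma called none of the 38 genes at an adjusted p of 0.05, against 0.0440% of all genes higher and 0.00880% lower. At an unadjusted p of 0.05 it had 12 of the 38 higher (7.02% of all genes) and 1 lower, Jak2 (7.19% of all genes). The quasi-likelihood test of edgeR on recovered reads called 7 of the 38 higher, against 2.47% of all genes, and none lower (1.86%). The 7 were Ddx58, Dhx58, Adar, Trex1, Irf5, Irf7 and Irf9. DESeq2 called Adar and Irf9 higher, against 1.03% of all genes, and none lower (0.361%). Limma with a mean-variance trend called 9 higher, against 2.96%, which were the 7 of edgeR with Zbp1 and Socs1, and none lower (2.30%). Calls thus depend on the tool, and below each such gene is given with its adjusted p from limma, from edgeR, and the range over 12 settings.

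Among the RNA sensors, Dhx58, Ddx58 and Zbp1 stood higher with 4OHT in both cell types, and Ifih1 and Dhx9 lay within 1.2-fold. Adar, an RNA-editing enzyme grouped with the sensors here, also stood higher in both. Dhx58 encodes LGP2, a RIG-I relative that lacks signalling domains and tunes the other sensors. It had 18.1 normalized counts in ST-HSC colonies with 4OHT, against 6.68 with ethanol (ratio 2.71, 2.14 to 3.47). MPP2 colonies had 14.04 with 4OHT, against 7.14 with ethanol (ratio 1.97, 1.53 to 2.54). Both 4OHT libraries lay above both ethanol libraries. The shared log2 effect was 1.15 ± 0.16 (SE), with an adjusted p of 0.0921 by limma and 0.00572 by edgeR (0.00186 to 0.222 over settings). Dhx58 lies at chromosome 11, 100694884 to 100704271 (GRCm38), with the antisense gene Dhx58os over its exons. Whether counting used the strand is not stated in the labels.

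Ddx58 encodes RIG-I, which recognises RNA with a triphosphate end. Its level was 44.5 normalized counts in ST-HSC colonies with 4OHT, against 24.9 with ethanol (ratio 1.79, 1.57 to 2.04), and 53.0 in MPP2 colonies with 4OHT, against 36.0 with ethanol (ratio 1.47, 1.31 to 1.66). The 4OHT libraries were again the higher pair, with a shared effect of 0.69 ± 0.14 and an adjusted p of 0.147 by limma and 0.00966 by edgeR (0.00505 to 0.268 over settings). Ifih1, which encodes the long double-stranded RNA sensor MDA5 and has the match shown above, had 20.1 and 17.6 in ST-HSC colonies with 4OHT and ethanol, and 16.9 and 15.01 in MPP2 colonies. Its ratios of 1.14 (0.961 to 1.36) and 1.13 (0.927 to 1.37) had intervals that included 1.

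Zbp1, a sensor of left-handed (Z-form) nucleic acid that can start cell death, had 14.3 normalized counts in ST-HSC colonies with 4OHT, against 3.69 with ethanol (ratio 3.88, 2.85 to 5.36). MPP2 colonies had 10.8 with 4OHT, against 8.30 with ethanol (ratio 1.30, 1.00 to 1.68). The low ST-HSC ethanol library sets it apart, and the ST-HSC ratio was 2.995 times the MPP2 ratio (2.02 to 4.43). Its shared effect of 1.09 ± 0.35 had an adjusted p of 0.278 by limma and 0.0686 by edgeR (0.0280 to 0.460 over settings). Adar, which edits adenosine in double-stranded RNA and keeps the cell's own RNA from being sensed, had 91.3 against 61.8 in ST-HSC colonies (ratio 1.48, 1.36 to 1.61) and 112 against 71.4 in MPP2 colonies (ratio 1.57, 1.45 to 1.71). Its shared effect was 0.61 ± 0.13, with an adjusted p of 0.159 by limma and 0.00919 by edgeR (0.00407 to 0.280 over settings).

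Dhx9, a nuclear helicase that also binds cytosolic nucleic acid, was the RNA sensor with the highest level, at 259.7 normalized counts in ST-HSC colonies with 4OHT and 284 with ethanol, and at 219 and 246 in MPP2 colonies. Its ratios were 0.913 (0.873 to 0.955) and 0.890 (0.846 to 0.937), and with the trend over GC content removed its shared effect was 0.030 in place of -0.15. Tlr3, the endosomal sensor of double-stranded RNA, had 22 reads in ST-HSC colonies with 4OHT and 3 with ethanol (ratio 7.58, 2.28 to 39.5). It had 13 reads in MPP2 colonies with 4OHT and 9 with ethanol (ratio 1.61, 0.635 to 4.26). Tlr3 was left out of all counts of differences and calls because its mean was 0.870, while its promoter window was searched with the others.

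None of the 3 DNA sensors passed 2-fold in either cell type. Ddx41, a helicase described as a DNA sensor and also mutated in myeloid malignancies, had 63.5 normalized counts in ST-HSC colonies with 4OHT, against 56.0 with ethanol, and 51.1 against 48.3 in MPP2 colonies. Mb21d1, which encodes cGAS, ranged from 20.98 to 24.4 over the 4 libraries, and its interval included 1 in both cell types. Aim2, which builds an inflammasome on DNA, had 15.3 and 15.4 in ST-HSC colonies, and 14.4 with 4OHT against 19.1 with ethanol in MPP2 colonies (ratio 0.755, 0.621 to 0.916).

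Of the nucleases that clear nucleic acid before it is sensed, Trex1 stood higher with 4OHT and the 3 subunits of RNase H2 had no common direction. Trex1, the main cytosolic DNA exonuclease, had 18.1 normalized counts in ST-HSC colonies with 4OHT, against 9.60 with ethanol (ratio 1.89, 1.53 to 2.34). MPP2 colonies had 16.9 with 4OHT, against 7.58 with ethanol (ratio 2.23, 1.76 to 2.85). Its shared effect was 1.00 ± 0.14, with an adjusted p of 0.0921 by limma and 0.00826 by edgeR (0.00314 to 0.218 over settings). Trex1 lies at chromosome 9, 109057933 to 109059734. Of the 31-base words of its transcripts, 97.6% also occur in transcripts of other genes, so its value is uncertain. Atrip, which overlaps it on the same strand, shares the most.

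Rnaseh2c, a structural subunit of RNase H2, had 75.1 normalized counts in ST-HSC colonies with 4OHT and 87.9 with ethanol, and 75.9 and 72.2 in MPP2 colonies. Rnaseh2b, the other structural subunit, had 25.4 and 24.3 in ST-HSC colonies and 21.7 and 26.3 in MPP2 colonies. Rnaseh2a, the catalytic subunit, had 31.2 and 30.4 in ST-HSC colonies and 19.5 and 18.8 in MPP2 colonies, with ratios of 1.03 (0.897 to 1.17) and 1.04 (0.866 to 1.24). Rnaseh2a shares 15.1% of its 31-base words with other genes, and its level differed between the cell types rather than with 4OHT.

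Downstream of the sensors, both adaptors had intervals above 1 in ST-HSC colonies. Tmem173 encodes STING, the adaptor of cGAS. It had 63.2 normalized counts in ST-HSC colonies with 4OHT, against 42.7 with ethanol (ratio 1.48, 1.33 to 1.64), and 31.6 against 27.3 in MPP2 colonies (ratio 1.16, 1.00 to 1.34). Mavs, the adaptor of RIG-I and MDA5, had 18.8 against 14.8 in ST-HSC colonies (ratio 1.27, 1.05 to 1.52) and 12.7 against 12.1 in MPP2 colonies (ratio 1.05, 0.836 to 1.31). The ubiquitin ligases were within 1.4-fold between 4OHT and ethanol in each cell type. Trim25, which activates RIG-I, had 139 against 121 in ST-HSC colonies and 154 against 139 in MPP2 colonies. Trim21, a cytosolic antibody receptor, and Trim56, which modifies STING, had 4OHT ratios of 1.13 and 1.09 in ST-HSC colonies and of 1.35 and 1.17 in MPP2 colonies.

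The kinases that phosphorylate IRF3 and IRF7 parted from each other. Tbk1 was level, at 51.1 and 48.9 normalized counts in ST-HSC colonies with 4OHT and ethanol and 54.2 and 53.8 in MPP2 colonies. Ikbke, which encodes IKKε, had 70.2 and 74.8 in ST-HSC colonies with 4OHT and ethanol (ratio 0.938, 0.860 to 1.02). In MPP2 colonies it had 91.9 with 4OHT, against 64.2 with ethanol (ratio 1.43, 1.31 to 1.56). The MPP2 4OHT library was the highest of the 4, and the ST-HSC ratio was 0.656 times the MPP2 ratio (0.580 to 0.742).

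The IRF family held the largest difference of the 38 genes in ST-HSC colonies. Irf7, the factor that amplifies interferon production, lies at chromosome 7, 141262706 to 141266481. Its reads numbered 435 in ST-HSC colonies with 4OHT and 53 with ethanol, and 247 in MPP2 colonies with 4OHT and 192 with ethanol. In normalized counts these were 31.3 against 3.69 and 19.8 against 13.9. The ratio in ST-HSC colonies ranked 18 and that in MPP2 colonies 717 of 11370 log2 differences from the highest. The ratio was 1.43 (1.18 to 1.74) in MPP2 colonies, and the ST-HSC ratio was 5.93 times as large (4.21 to 8.35). The 4OHT libraries differed by -0.65 (log2, MPP2 minus ST-HSC) and the ethanol libraries by 1.78, with the ST-HSC ethanol library lowest by far. The shared effect of 1.71 ± 0.56 had an adjusted p of 0.281 by limma and 0.0459 by edgeR (0.00918 to 0.920 over settings). Exons of Phrf1 overlap Irf7 on the other strand.

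Irf9, the DNA-binding part of the interferon-activated complex, lies at chromosome 14, 55603571 to 55610030. It had 19.8 normalized counts in ST-HSC colonies with 4OHT, against 7.79 with ethanol (ratio 2.54, 2.03 to 3.19). MPP2 colonies had 24.9 with 4OHT, against 14.3 with ethanol (ratio 1.74, 1.45 to 2.09). Both 4OHT libraries exceeded both ethanol libraries, and the shared effect of 1.03 ± 0.17 had an adjusted p of 0.111 by limma and 0.00703 by edgeR (0.00222 to 0.233 over settings). Rnf31 overlaps it on the same strand and holds 4.24% of its 31-base words or fewer. Irf5, a factor of macrophage cytokine genes, had 31.3 against 17.2 in ST-HSC colonies (ratio 1.82, 1.56 to 2.14) and 21.9 against 16.5 in MPP2 colonies (ratio 1.33, 1.11 to 1.59). Its shared effect of 0.62 ± 0.16 had an adjusted p of 0.214 by limma and 0.0439 by edgeR (0.0304 to 0.452 over settings).

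Irf1, a factor induced by interferon gamma and the carrier of the GAS match above, had 19.98 normalized counts in ST-HSC colonies with 4OHT, against 17.7 with ethanol (ratio 1.13, 0.947 to 1.34). In MPP2 colonies it had 39.1 with 4OHT, against 19.99 with ethanol (ratio 1.95, 1.68 to 2.27). The other 3 libraries lay together below the MPP2 4OHT library, the reverse of the pattern of Irf7. Irf3, the constitutive partner of Irf7 and the member of the family with the highest mean level, had 38.2 and 36.1 in ST-HSC colonies with 4OHT and ethanol and 33.8 and 31.03 in MPP2 colonies. Irf2, an antagonist of Irf1, had 27.7 and 28.1 in ST-HSC colonies and 29.1 and 33.6 in MPP2 colonies. Intervals of Irf3 included 1 in both cell types.

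Irf7, Zbp1 and Irf9, with ST-HSC ratios above their MPP2 ratios, and Irf1, Stat2 and Ikbke, with the opposite order, are marked in the plot of both differences. The interval of the ratio of ratios, ST-HSC over MPP2, lay above 1 for 10 of the 38 genes, against 17.5% of all genes, and below 1 for 7, against 17.5%. It covers counting error alone, and the difference between the cell types was not tested.

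**Figure D3:**
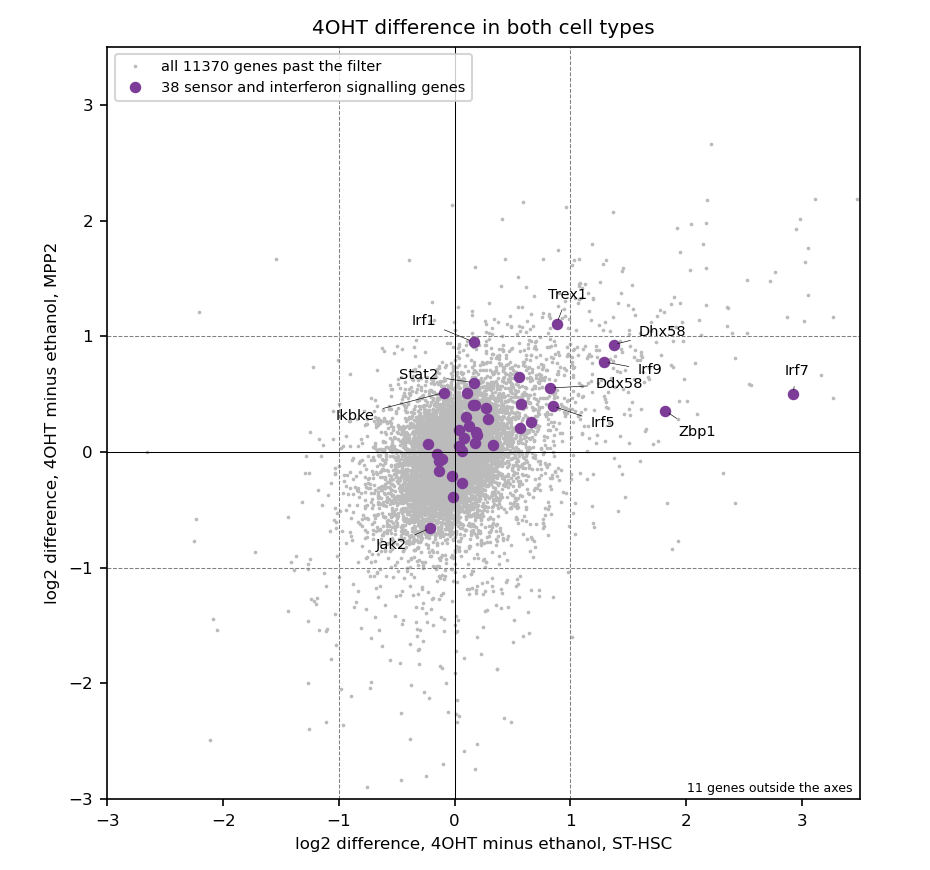
Log2 difference, 4OHT minus ethanol, in ST-HSC colonies (horizontal) and MPP2 colonies (vertical), for the 38 genes (purple) and all 11370 genes (grey), with dashed lines at 2-fold and 11 genes outside the axes. Irf7 (2.92 and 0.50) and Zbp1 (1.82 and 0.35) lie far to the right, Trex1 (0.88 and 1.11) highest, and Jak2 (-0.21 and -0.66) lowest.

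Interferon receptor chains differed by at most 1.43-fold within a pair. Ifngr1, the ligand-binding chain for interferon gamma, had 103 normalized counts in ST-HSC colonies with 4OHT and 115 with ethanol, and 98.4 and 99.7 in MPP2 colonies. Ifngr2, its partner, had 74.3 against 61.3 in ST-HSC colonies (ratio 1.21, 1.11 to 1.33) and 89.1 against 68.5 in MPP2 colonies (ratio 1.30, 1.19 to 1.42). The partner chain was thus the one with both intervals above 1. Of the type I receptor, Ifnar1 had a ratio of 1.22 (1.13 to 1.33) in ST-HSC colonies, and in MPP2 colonies it was also 1.22 (1.12 to 1.33). Ifnar2 had 77.4 and 71.7 in ST-HSC colonies with 4OHT and ethanol (ratio 1.08, 0.990 to 1.18), and 99.5 against 69.6 in MPP2 colonies (ratio 1.43, 1.31 to 1.56).

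Of the Janus kinases, Jak1 and Jak2 had 4OHT ratios below 1 and Tyk2 above 1 in both cell types. Jak2, which serves the interferon gamma receptor and the receptors of IL-3 and GM-CSF, had 83.9 normalized counts in ST-HSC colonies with 4OHT, against 97.2 with ethanol (ratio 0.863, 0.798 to 0.934). For MPP2 the level was 91.8 with 4OHT, against 145 with ethanol (ratio 0.633, 0.588 to 0.680). The MPP2 ethanol library stands above the other 3. The shared effect was -0.43 ± 0.16, with an adjusted p of 0.335 by limma and 0.0822 by edgeR (0.0508 to 0.507 over settings). Jak1, common to both interferon receptors, had 225 and 242 in ST-HSC colonies with 4OHT and ethanol and 302 and 315 in MPP2 colonies. Tyk2, of the type I receptor, had ratios of 1.03 (0.952 to 1.11) and 1.14 (1.06 to 1.23).

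Stat3, which carries the IL-6 signal and restrains interferon output, had 178 and 167 normalized counts in ST-HSC colonies with 4OHT and ethanol, and 199.6 and 162 in MPP2 colonies. Stat2, which carries the type I interferon signal, had 17.7 and 15.6 in ST-HSC colonies (ratio 1.13, 0.939 to 1.36). In MPP2 colonies it had 31.6 with 4OHT, against 20.7 with ethanol (ratio 1.53, 1.31 to 1.78). The ST-HSC ratio of Stat2 was 0.740 times its MPP2 ratio (0.584 to 0.938), on the same side as that of Irf1.

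The inhibitors stood higher with 4OHT in both cell types, with intervals above 1 in all 6 ratios. Socs1, which blocks JAK kinases after interferon, had 23.7 normalized counts in ST-HSC colonies with 4OHT, against 15.8 with ethanol (ratio 1.502, 1.26 to 1.79). For MPP2 it was 43.4 with 4OHT, against 32.4 with ethanol (ratio 1.34, 1.18 to 1.52). Both MPP2 libraries lay above both ST-HSC libraries. The shared log2 effect of 4OHT on Socs1 was 0.49 ± 0.13 (SE), with an adjusted p of 0.217 by limma and 0.0572 by edgeR (0.0493 to 0.618 over all settings). Socs3, which blocks IL-6 signalling, had 55.0 against 34.6 in ST-HSC colonies (ratio 1.59, 1.42 to 1.78) and 58.8 against 49.0 in MPP2 colonies (ratio 1.20, 1.08 to 1.33). Ptpn6, which encodes the phosphatase SHP-1, had 349.8 against 310.4 in ST-HSC colonies (ratio 1.13, 1.08 to 1.17) and 434 against 328 in MPP2 colonies (ratio 1.32, 1.27 to 1.38).

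Levels were compared between genes per kilobase of the longest coding transcript, as the mean over the 4 libraries. Ptpn6 was highest with 154 normalized counts per kb, followed by Rnaseh2c with 69.1, Jak1 with 55.2, Dhx9 with 54.6 and Ifngr1 with 49.3. The lowest was Tlr3 with 0.198, then Trim56 with 2.77, Ifih1 with 3.18 and Trim21 with 3.37. Receptors, kinases and the phosphatase thus stood above the sensors MDA5 and LGP2 (4.77 per kb for Dhx58) on this scale, and Irf7 averaged 7.67.

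Between cell types, Irf7, Zbp1 and Socs1 stood at least 2-fold higher in MPP2 than in ST-HSC colonies with ethanol. They are 3 of the 38 genes (7.89%), near the 6.27% of all genes, and with 4OHT none of the 38 did, against 5.39%. None stood at least 2-fold lower in MPP2 colonies in either medium, against 1.71% of all genes with 4OHT and 0.862% with ethanol. Tmem173 lay at that limit with 4OHT, with a ratio of 0.4998 and a log2 difference of -0.99 once the constant of 0.5 was added. For Irf7 the MPP2 to ST-HSC ratio was 0.634 (0.540 to 0.743) with 4OHT and 3.76 (2.76 to 5.20) with ethanol. For Zbp1 it was 0.752 (0.599 to 0.940) with 4OHT and 2.25 (1.61 to 3.18) with ethanol. Both genes thus stood lower in MPP2 colonies with 4OHT and higher in MPP2 colonies with ethanol. Log2 differences, MPP2 minus ST-HSC, were above 0 for 23 of the 38 in either medium, against 48.2% of all genes with 4OHT and 46.0% with ethanol. Counting intervals with 4OHT lay above 1 for 16 genes (30.1% of all genes) and below 1 for 9 (32.8%). With ethanol they lay above 1 for 16 (27.3%) and below 1 for 8 (31.8%).

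Across both media, limma called Socs1 higher in MPP2 colonies, against 9.88% of all genes, with a shared log2 difference of 0.94 ± 0.13 (SE) and an adjusted p of 0.0212. It called Tmem173 and Rnaseh2a lower, against 5.31% of all genes. Neither was called with an added constant of 0.1 or without the filter on low values, and 1 was with the GC trend removed. Tmem173 had 31.6 in MPP2 and 63.2 in ST-HSC colonies with 4OHT, and 27.3 and 42.7 with ethanol (log2 -0.81 ± 0.15, adjusted p by limma 0.0337). Rnaseh2a had 19.5 in MPP2 and 31.2 in ST-HSC colonies with 4OHT, and 18.8 and 30.4 with ethanol (log2 -0.67 ± 0.13, adjusted p by limma 0.0356). At an unadjusted p of 0.05 limma had 7 of the 38 higher (19.1% of all genes) and 3 lower (18.6%). By edgeR 8 were higher (16.5% of all genes) and 2 lower (14.0%), by limma with trend likewise 8 (16.7%) and 2 (16.4%), and by DESeq2 2 (8.74%) and 1 (3.98%). The plot of cell type differences shows these genes beside Irf7 and Zbp1.

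**Figure D4:**
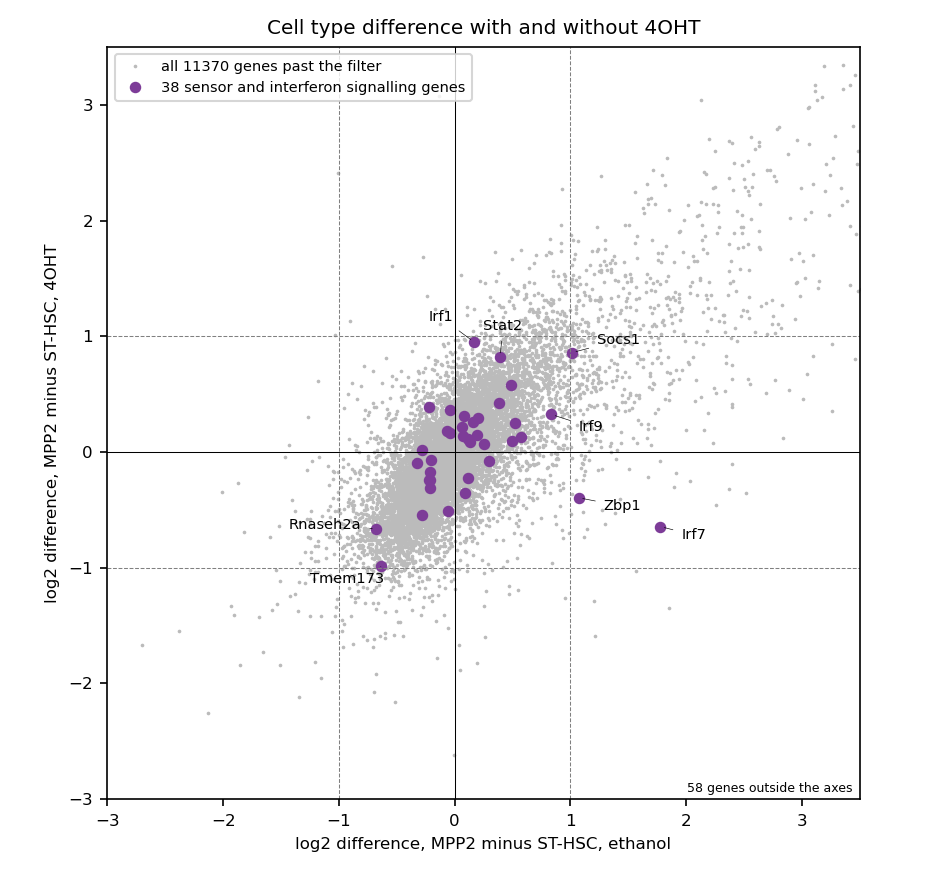
Log2 difference, MPP2 minus ST-HSC, with 4OHT (vertical) and with ethanol (horizontal), for the 38 genes (purple) and all 11370 genes (grey), with dashed lines at 2-fold and 58 genes outside the axes. Irf7 (-0.65 with 4OHT and 1.78 with ethanol) and Zbp1 (-0.40 and 1.07) lie below the zero line on the right, Socs1 (0.86 and 1.01) on the upper right, and Tmem173 (-0.99 and -0.64) on the lower left.

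Other genes of the same routes gave mixed counts. Of all genes, 2.10% stood at least 2-fold higher and 0.545% lower with 4OHT in ST-HSC colonies, and 1.32% and 1.70% in MPP2 colonies. By edgeR 2.47% were higher and 1.86% lower for the shared effect. Of 23 other RNA sensing genes, 5 in ST-HSC and 4 in MPP2 colonies stood at least 2-fold higher with 4OHT and none lower, with medians of 0.02 and 0.15, and edgeR called 4 higher for the shared effect. The 4, Oas1a, Oas2, Oas3 and Ifit1, are enzymes and binders of viral RNA. Oas1a shares 68.8% of its 31-base words with other genes and Ifit1 10.5%, so their values are uncertain. The same limit holds for some genes named further below. Among them are Pgk1 (54.7%), Actb (23.5%), Ifitm3 (20.5%), Gbp7 (14.7%), Isg15 (12.8%) and Rtp4 (12.5%). Ifit1 had 8.12 against 0.556 normalized counts in ST-HSC colonies and 4.65 against 1.15 in MPP2 colonies. Dhx36, a helicase with a role in RNA sensing, had the lowest mean difference over both cell types, at 42.2 against 53.3 and 39.2 against 53.5. Dhx15, an RNA helicase of the splicing machinery, had the highest level of the list, at 294 against 283 and 226 against 259.9. Of 21 other DNA sensing genes, 2 and 1 passed 2-fold upward, with medians of 0.09 and 0.01, and edgeR called Ifi203 and Ifi204 higher and Rad50 lower. Ifi203 and Ifi204 share 21.6% and 34.0% of their 31-base words with other genes and are uncertain. Ifi204 had the highest mean difference, at 12.07 against 0.904 in ST-HSC and 4.65 against 2.74 in MPP2 colonies. Irf2bp2, a corepressor that binds IRF2, had the highest level, at 581 against 598 and 630.2 against 562. Rad50, part of a break-repair complex that also binds cytosolic DNA, had 28.2 against 40.7 in ST-HSC and 18.7 against 32.3 in MPP2 colonies, an edgeR log2 effect of -0.65.

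Of 26 other IRF, STAT and feedback genes, 2 stood at least 2-fold higher and 1 lower in each cell type, with medians of 0.08 and 0.06. Of all genes, 2.10% were higher and 0.545% lower in ST-HSC colonies, and 1.32% and 1.70% in MPP2 colonies. By edgeR, Usp18, Isg15 and Irf8 were higher (2.47% of all genes) and Irf4 lower (1.86%). Usp18, which detaches ISG15 and blocks the type I receptor, had 16.5 against 0.904 normalized counts in ST-HSC and 10.6 against 2.96 in MPP2 colonies. Irf4, a lymphoid and myeloid relative, had 1.80 against 4.45 and 3.61 against 8.66, an edgeR log2 effect of -1.27. Ptpn1, a phosphatase of JAK2 and TYK2, had the highest level of this list, at 381 against 321 in ST-HSC and 442 against 315 in MPP2 colonies. The interferon factors thus differed in direction, with Irf8 and Irf4 apart.

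Antiviral effector genes, at the end of the pathway, had the highest medians of all the lists in both cell types. For the counts that follow, 2.10% of all genes in ST-HSC and 1.32% in MPP2 colonies stood at least 2-fold higher with 4OHT. At least 2-fold lower were 0.545% and 1.70%, and edgeR called 2.47% higher for the shared effect. Of 27 antiviral effector genes, among them the Oas genes, Ifit1, Isg15 and Usp18 already counted above, 18 in ST-HSC and 13 in MPP2 colonies stood at least 2-fold higher with 4OHT and none lower, with medians of 1.89 and 0.90, and edgeR called 19 higher. By the mean difference over both cell types their ends were Oasl2, at 19.4 against 0.417 normalized counts in ST-HSC and 7.30 against 2.81 in MPP2 colonies, and Isg20, at 6.18 against 6.05 and 6.58 against 8.73. Within MPP2 colonies the ends were Rtp4 (log2 2.18, 9.31 against 1.66) and Ifi27l2a (log2 -0.84, 2.33 against 4.55). Ifitm3, a membrane protein that blocks virus entry, had the highest level, at 427 against 309.9 and 316 against 232. Of 14 interferon gamma targets, 7 and 2 stood at least 2-fold higher, with medians of 0.98 and 0.74, and edgeR called 9 higher, Cxcl10 among them at 14.3 against 3.89 and 12.03 against 5.05, the highest mean difference of the list. Gbp7, a guanylate-binding protein, had the lowest, at 17.5 against 13.6 and 8.66 against 11.3. Psmb8, a subunit of the immunoproteasome, had the highest level, at 63.2 against 50.8 and 37.7 against 38.4. Of 10 STAT3 targets none passed 2-fold, with medians of 0.11 and 0.30, and edgeR called Bcl3 higher, at 13.08 against 8.35 and 12.997 against 7.07. Lcn2, which binds bacterial iron carriers, had the highest level of that list, at 742 against 853 in ST-HSC and 2136 against 1587 in MPP2 colonies. Hif1a had its lowest mean difference over both cell types, at 177 against 197 and 145 against 186. By limma no gene of these 6 lists passed the adjusted threshold, while at an unadjusted p of 0.05, which 7.02% of all genes passed upward and 7.19% downward, it had 6 RNA sensing, 4 DNA sensing, 5 IRF, STAT and feedback, 22 antiviral, 10 interferon gamma target and 4 STAT3 target genes higher. Lower at that p were 1, 2 and 2 genes of the first 3 lists and 0 of the others. The antiviral list was known from earlier results of these libraries to stand high, so its counts are a description.

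Of 21 interferon ligand genes 2 were in the table, Ifnk and Ifnz, with at most 6 reads in a library, and the others were not analysed here.

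Markers of several cell types differed with 4OHT beside these genes. The monocyte and macrophage markers, 13 of 14 in the table, summed to 3627 normalized counts in ST-HSC colonies with 4OHT, against 2438 with ethanol, and to 4738 against 3288 in MPP2 colonies. Lyz2 gave the largest part, at 1924 against 1113 and 2768 against 1692, and shares 32.8% of its 31-base words with other genes. Of the 11 past the filter, edgeR called 7 higher (2.47% of all genes), with medians of 0.75 and 0.62. Log2 differences were above 0 for all 11 in ST-HSC colonies (49.3% of all genes) and for 9 in MPP2 colonies (49.7%). Below 0 in MPP2 colonies were Cd14 (ratio 0.961, 0.888 to 1.04) and Ccr2 (ratio 0.583, 0.476 to 0.711). The conventional dendritic markers, 9 of 10 in the table, summed to 260.0 against 169 and to 183 against 84.3, and Cd74, H2-Aa and Itgax, which macrophages express too, gave nearly all of it. Of the 5 past the filter edgeR called those 3 higher (2.47% of all genes), with medians of 0.57 and 0.85. All 5 were above 0 in both cell types (49.3% and 49.7% of all genes). The rest had few reads. Xcr1 had 15 reads against 18 in ST-HSC and 10 against 10 in MPP2 colonies. Clec9a had 0 against 1 and 3 against 7, and Zbtb46 5 against 4 and 1 against 5. Batf3 had 35 against 22 and 13 against 11, and Flt3 12 against 6 and 3 against 1. Clec10a had 28 against 19 and 23 against 24. Macrophages and dendritic cells express Irf5, Irf7, Irf8 and the RNA sensors, and the part of these cells in the differences above was not tested. The plasmacytoid dendritic markers, from the cells that make most interferon, were in the table for 4 of 8 genes and summed to 22.3 against 21.9 in ST-HSC and 16.2 against 22.8 in MPP2 colonies, with Tcf4 and Bcl11a, which other cells express too, giving nearly all of it. Mast cell and basophil markers summed to 181 against 241 in ST-HSC and 677 against 1890.1 in MPP2 colonies, and erythroid markers to 2.08 against 3.06 and 21.02 against 167. Kit, also on the stem and progenitor list, gave 92.9 against 76.4 of the ST-HSC mast cell and basophil sums. Of 12 mast cell and basophil markers past the filter, edgeR called 9 lower and none higher, with medians of -0.90 and -1.51. Of 9 erythroid markers it called 5 lower and none higher, with medians of 0 and -1.88. The ST-HSC median reflects near absence. Of the 5 called, Hba-a1 had 2 and 3 reads in ST-HSC colonies, and Hba-a2, Hbb-b1 and Slc4a1 had 0 in both libraries. Their calls thus rest on the MPP2 pair, and only Gata1 had more reads in ST-HSC colonies. Hba-a1 and Hba-a2 share 75.5% and 92.6% of their 31-base words with other genes. Limma called 1 of the 12 mast cell and basophil markers lower and none of the 9 erythroid ones. Of all genes edgeR called 1.86% lower and 2.47% higher. Megakaryocyte markers summed to 28.8 against 24.4 and 467 against 519, and the 3 NK and T cell markers in the table to 50.9 against 75.0 and 48.4 against 57.8. Nkg7 gave nearly all of that sum, and Cd8a and Prf1 had at most 10 reads in a library. The housekeeping list of 15 genes had medians of -0.01 and 0.07, and its ends were B2m (log2 0.56 and 0.094) and Pgk1 (log2 -0.24 and -0.30). Actb had its highest level, at 12312 against 12379 in ST-HSC and 17942 against 15712 in MPP2 colonies. Kmt2a and Mllt1, the parents of the fusion, had edgeR shared effects of -0.13 and 0.14, and counts per symbol do not separate the fusion from them.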

How the data were processed

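The authors deposited 1 table of normalized values for 14323 gene symbols in 4 libraries; how this deposited signal was scaled is not stated, but all 57292 values lay within 1e-06 of a whole multiple of their column's smallest step, and these whole reads were recovered by division. The submitters' processing notes name the build mm10 and the tools edgeR, RSEM, Bowtie2 and Trimmomatic 0.36, with no role, order or strand setting. Per the labels' protocols, 200 ng of total RNA entered MGIEasy rRNA depletion and directional library kits.

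Genes with a mean of at least 1 (11370, 79.4%) were tested with limma 3.58.1 on log2(value + 0.5), without trend or robust options, on cell type plus treatment (4 libraries, 3 coefficients), with Benjamini-Hochberg adjustment over all of them at 0.05. Alternatives were other constants, filters and scalings, limma with trend or robust option, edgeR 4.0.16 and DESeq2 1.42.0 on recovered reads and, chosen after seeing the data, removal of the GC trend. Pairs of libraries have no test: ratios carry exact conditional binomial 95% intervals, ratios of ratios a normal approximation. Scripts were tested on simulated data. Software was Python 3.11.15, matplotlib 3.10.9, scipy 1.17.1, pandas 2.3.3, numpy 2.4.6 and R 4.3.3. Positions, lengths, overlaps and shared words come from GENCODE M21 on GRCm38, the assembly of mm10.

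The genes and lists were chosen with earlier results of these data known. Values in every library were to be given for genes 2-fold apart in any pair or past the shared test, for the highest of each role, for genes under the filter, and for the highest level and the extreme differences of each context list, of which marker lists are given as sums; other genes given in full were chosen after their values were seen.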

Additional observations from a re-analysis of the deposited data

Results flagged for a closer look

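For 3 genes the difference between 4OHT and ethanol had opposite signs in the 2 cell types, beyond the counting interval in at least 1 of them; the difference between cell types was not tested. Ikbke, the IKKε kinase, differed by -0.091 (log2) in ST-HSC colonies and 0.51 in MPP2 colonies. Rnaseh2b differed by 0.067 in ST-HSC and -0.27 in MPP2 colonies. Rnaseh2c differed by -0.23 in ST-HSC and 0.072 in MPP2 colonies, where it was -0.10 with the GC trend removed.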

How the results depend on the processing

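No paired analysis was possible because the groups, of 1 library each, share no replicate numbers; the shared fit itself sets 4OHT against ethanol within each cell type. Leaving a library out leaves no residual degree of freedom. With an added constant of 2, or with the GC trend removed, 0 genes in place of 1 passed 2-fold higher in MPP2 colonies with 4OHT. With a constant of 2, 1 gene in place of 3 stood 2-fold higher in MPP2 than in ST-HSC colonies with ethanol. Without the TMM factor in the scaling, which moved the median of all genes to 0.02 in ST-HSC and -0.07 in MPP2 colonies, 1 gene in place of 0 (Tmem173) stood 2-fold lower in MPP2 colonies with 4OHT. For the shared 4OHT effect the genes called higher numbered 0 as reported, 3 with a constant of 2, 4 with a mean of at least 5, 9 with limma's trend, 7 with edgeR and 2 with DESeq2. For the shared cell type effect those called higher in MPP2 colonies numbered 1 as reported, 5 with a constant of 2, 5 with a mean of at least 5, 8 with limma's trend, 8 with edgeR and 2 with DESeq2. Those called lower numbered 2 as reported, 0 with a constant of 0.1, 0 without the filter, 1 with the GC trend removed and 1 with DESeq2. With the GC trend removed the shared 4OHT effect changed sign for Dhx9 (0.030) and Rnaseh2a (-0.00777). The cause was not tested. Over all genes, the shared 4OHT effect was called higher for 5 and lower for 1 by limma, 281 and 211 by edgeR, 337 and 261 by limma with trend, and 117 and 41 by DESeq2. Of 532 other values for pair differences, 522 stayed within their counting interval. Values under another filter on low values are among them and could not move, since a filter does not alter a pair difference. Arms of 1 library limit all of this, and at under about 100 reads, as for Irf7 in ST-HSC colonies with ethanol, counting error alone is wide.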
